A study of Mus musculus with 8 samples.

Results

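The cap mesenchyme self-renewal factors described here are 9 transcription factors and cofactors of the nephron progenitors of the embryonic mouse kidney: *Six2*, *Six4*, *Eya1*, *Cited1*, *Osr1*, *Sall1*, *Meox1*, *Meox2* and *Uncx*. They were chosen by gene symbol from a count table of 30890 genes, and all 9 were found in it. C57BL/6 kidneys were taken from embryos at stage E12.5 and kept in culture for 72 h with 5 µM CHIR99021 (n = 4) or, as controls, with the solvent DMSO at 0.1% (n = 4), and their RNA was sequenced. Per the study's methods control kidneys were left and treated kidneys right ones of the same embryos, and kidneys in which typical Wnt targets had not responded were not used. Whole kidneys were sequenced, so that fewer cap mesenchyme cells and less RNA per cell cannot be told apart in any value below.

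The cap mesenchyme is the layer of progenitor cells that surrounds each tip of the ureteric bud and gives rise to the nephrons. It has to renew itself while part of it is induced, chiefly by Wnt9b from the ureteric bud, to form renal vesicles. β-Catenin carries the Wnt signal into the nucleus, where it acts with TCF/LEF factors. Without the signal, the kinase GSK-3β marks β-catenin for degradation, and CHIR99021 inhibits that kinase. The 9 factors are known as markers or regulators of the progenitors before their induction.

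All 9 factors were lower with CHIR99021. Each passed an adjusted p of 0.05 in edgeR's quasi-likelihood test across all genes, beside 25.0% of the 16723 genes tested that were called lower and 48.7% that were called in either direction. The fall was very unequal. *Meox2* fell by 7.11 on the log2 scale and *Six2* by 5.33, while *Sall1* fell by 0.52 and *Six4* by 0.31. The median log2 fold change of the 9 factors was -3.51, against -0.0029 over all tested genes. Of the 9, 7 were called with a log2 fold change below -1, which 9.16% of tested genes were, and 5 with one below -3, which 1.67% were. The study had named *Six2*, *Meox2*, *Cited1* and *Uncx* as downregulated in these same samples, so these counts are not independent evidence of direction. All 9 passed the filter on low counts, but *Meox2* had fewer than 10 counts in every CHIR99021 sample and passed by its DMSO samples. *Meox1*, with 5 counts in CHIR99021 replicate 1, also needed its DMSO samples to pass.

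**Figure D1:**
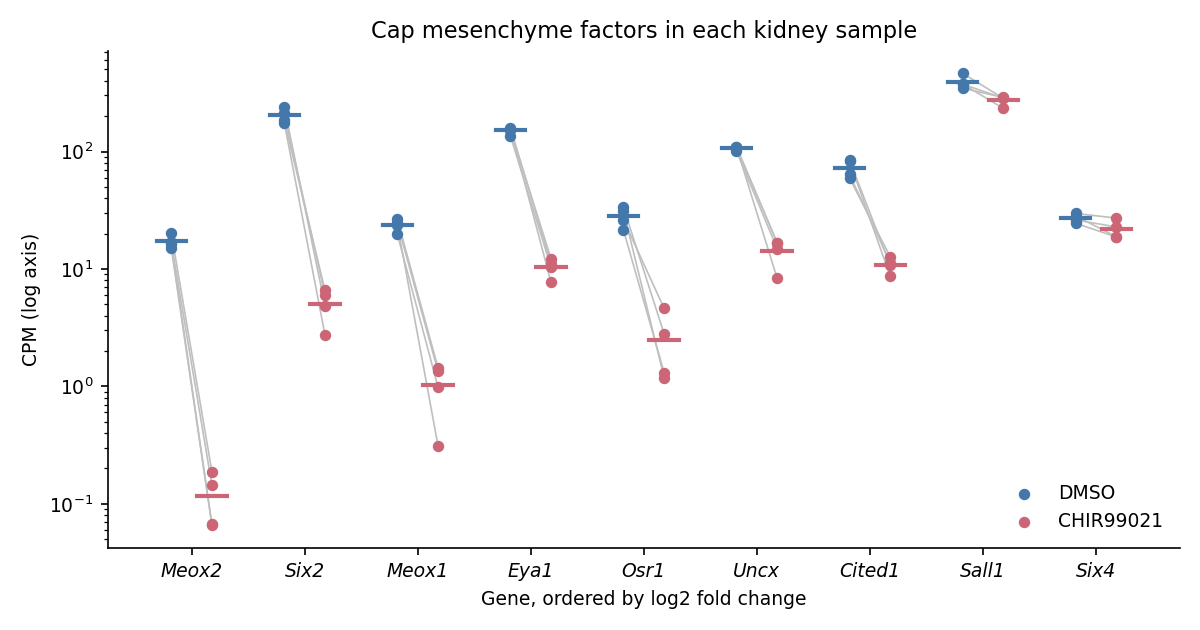
Level of each factor in each sample, in CPM (the count relative to the scaled library total) on a log axis, with 4 DMSO and 4 CHIR99021 samples, a bar at each group mean and a line joining samples of the same replicate number. The groups are apart for 8 factors, as they are with CHIR99021 below DMSO in 23.4% of all tested genes, by the widest margin for *Meox2* and *Six2*, and overlap for *Six4*, where DMSO runs from 24.5 to 29.7 and CHIR99021 from 18.7 to 27.1.

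Upstream sequences are shown for the factors with the 2 largest and the 2 smallest falls among those that RefSeq's promoter table holds, to set side by side the start sites of genes that moved so differently. They are RefSeq sequences of GRCm38.p6, written 5′ to 3′ on the strand of the gene, in lower case, with each CG dinucleotide in capitals. Only bases upstream of the annotated gene are shown. *Six2* lies on the minus strand and its stretch is chr17:85688275-85688504, *Meox2* on the plus strand at chr12:37108290-37108539, *Six4* on the minus strand at chr12:73113457-73113675 and *Sall1* on the minus strand at chr8:89044163-89044412.
Meox2: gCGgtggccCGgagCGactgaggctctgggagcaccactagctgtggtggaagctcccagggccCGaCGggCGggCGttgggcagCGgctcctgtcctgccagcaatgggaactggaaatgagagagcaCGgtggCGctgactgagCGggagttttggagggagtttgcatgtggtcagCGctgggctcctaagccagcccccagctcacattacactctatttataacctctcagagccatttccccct
Six2: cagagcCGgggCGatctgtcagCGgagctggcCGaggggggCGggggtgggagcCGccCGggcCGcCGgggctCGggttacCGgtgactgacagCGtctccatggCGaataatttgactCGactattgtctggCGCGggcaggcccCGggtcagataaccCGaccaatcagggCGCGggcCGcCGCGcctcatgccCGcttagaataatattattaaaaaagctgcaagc
Sall1: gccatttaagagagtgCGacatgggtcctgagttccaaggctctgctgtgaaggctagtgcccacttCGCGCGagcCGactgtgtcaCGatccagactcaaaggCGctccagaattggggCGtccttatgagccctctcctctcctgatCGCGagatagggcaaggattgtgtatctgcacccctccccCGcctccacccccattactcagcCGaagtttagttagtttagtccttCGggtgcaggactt
Six4: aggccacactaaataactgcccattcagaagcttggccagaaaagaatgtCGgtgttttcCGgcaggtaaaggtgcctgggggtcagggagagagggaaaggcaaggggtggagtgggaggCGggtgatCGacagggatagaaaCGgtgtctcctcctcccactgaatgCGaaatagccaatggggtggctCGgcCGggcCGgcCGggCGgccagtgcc

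The *Six2* stretch holds 24 CG dinucleotides in 230 bases, the *Meox2* stretch 12 in 250, the *Sall1* stretch 13 in 250 and the *Six4* stretch 11 in 219. In the whole 300-base promoter windows, which also take in the start of the transcript, *Six2* had 37, at the 94.4th percentile of all 32851 promoters, and *Meox2* 12, at the 60.4th percentile, where the median promoter had 7. The 2 factors that fell most were thus far apart in CG content. The TCF/LEF core motif CTTTGAT, searched on both strands, was found in none of the windows of the 6 factors the table holds (*Six2*, *Six4*, *Cited1*, *Sall1*, *Meox2* and *Uncx*), and 3.73% of all promoters hold it. The MEF3 motif TCAGGTT, bound by proteins of the *Six2* family, was found only at another start site of *Six4*, on the minus strand of the window at position -97 from that start, and 4.07% of all promoters hold it. TATAAA was found in *Meox2*, on the minus strand at position -29, and in *Cited1* at position -13 and, from another start, -115, a motif in 13.6% of all promoters. None of these motifs overlap one another. A match of letters is a description and not a binding site.

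*Six2*, *Six4* and *Eya1* belong to the sine oculis and eyes absent families, in which homeodomain proteins such as Six2 bind DNA and EYA proteins join them as coactivators with phosphatase activity. *Six2* (ENSMUSG00000024134, chromosome 17: 85684277 to 85688274, minus strand, GRCm38) holds nephron progenitors in the undifferentiated state. It stood at 238, 176, 213 and 184 CPM in DMSO replicates 1 to 4, and at 4.87, 2.74, 6.03 and 6.57 CPM in CHIR99021 replicates 1 to 4. Every CHIR99021 sample lay far below every DMSO sample, and replicate 2 was the lowest in both groups. The means were 203 ± 28.4 and 5.05 ± 1.70 CPM (SD, n = 4), 40.1-fold lower with CHIR99021, and the log2 fold change was -5.33 (SE 0.21, edgeR adjusted p = 3.35e-07). By this change *Six2* was the 42nd lowest of all 16723 genes tested.

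*Eya1* (ENSMUSG00000025932, chromosome 1: 14168954 to 14310235, minus strand) is the EYA member without which the ureteric bud does not form. Its level was 157, 153, 160 and 136 CPM in the DMSO samples and 7.68, 12.2, 11.1 and 10.3 CPM in the CHIR99021 samples. The groups were apart, with means of 151 ± 10.5 and 10.3 ± 1.94 CPM (SD, n = 4). The log2 fold change was -3.88 (SE 0.11, edgeR adjusted p = 9.02e-10), or 14.7-fold lower. A miRNA gene, *Gm22616*, lies within *Eya1* on the other strand and its 63 DMSO and 4 CHIR99021 counts fell alike (log2 fold change -3.64, SE 0.54, edgeR adjusted p = 0.000103). The sources used here do not say whether strand was used in counting, so these counts cannot be told apart from reads of *Eya1*.

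*Six4* (ENSMUSG00000034460, chromosome 12: 73099609 to 73113456, minus strand), a homeodomain member of the same family, had the smallest fitted fall of the 9. Its fall could not be told apart from that of *Sall1* (exact permutation p = 0.171 for their ratio). *Six4* stood at 28.3, 24.5, 26.1 and 29.7 CPM with DMSO and at 18.8, 18.7, 22.8 and 27.1 CPM with CHIR99021. CHIR99021 replicate 4 lay above 2 of the 4 DMSO samples, and *Six4* was the only one of the 9 whose groups overlapped. The means were 27.2 ± 2.31 and 21.8 ± 3.97 CPM (SD, n = 4), with a log2 fold change of -0.31 (SE 0.12, edgeR adjusted p = 0.0421). This call was not stable in fits without pairing. Leaving out CHIR99021 replicate 1, 2 or 3, or DMSO replicate 1, 3 or 4, ended it. The edgeR adjusted p was then up to 0.117. The call held without DMSO replicate 2 (edgeR adjusted p = 0.0374) or without CHIR99021 replicate 4 (edgeR adjusted p = 0.00368). None of these fits had a term for pairing. In all 8 samples with the replicate number as a block, *Six4* was called lower (edgeR adjusted p = 0.00829).

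*Osr1* and *Sall1* are zinc finger factors. *Osr1* (ENSMUSG00000048387, chromosome 12: 9570116 to 9581500, plus strand) marks the intermediate mesoderm from which the kidney arises and works with *Six2* in the progenitors. Its level was 31.2, 26.3, 33.6 and 21.5 CPM in the DMSO samples and 1.19, 4.62, 2.80 and 1.31 CPM in the CHIR99021 samples. The groups were apart, but the CHIR99021 samples spread 3.90-fold from lowest to highest, with replicate 2 the highest, a coefficient of variation of 64.7%. The means were 28.2 ± 5.36 and 2.48 ± 1.60 CPM (SD, n = 4), and the log2 fold change was -3.51 (SE 0.38, edgeR adjusted p = 0.000118). That SE was the widest of the 9 in edgeR only. The SE of *Meox2* was wider than that of *Osr1* in DESeq2 (0.57 against 0.46) and limma-voom (0.44 against 0.37).

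*Sall1* (ENSMUSG00000031665, chromosome 8: 89027235 to 89044162, minus strand) is required in the metanephric mesenchyme for the ureteric bud to invade it. It stood at 463, 376, 346 and 374 CPM with DMSO and at 284, 233, 289 and 285 CPM with CHIR99021. All CHIR99021 samples were below all DMSO samples, but the highest of them reached 289 CPM against 346 CPM in the lowest control. The means were 390 ± 50.7 and 273 ± 26.5 CPM (SD, n = 4), 1.43-fold lower, with a log2 fold change of -0.52 (SE 0.097, edgeR adjusted p = 0.0014).

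*Meox1*, *Meox2* and *Uncx* are homeobox genes best known from the somites that also mark the cap mesenchyme. *Meox2* (ENSMUSG00000036144, chromosome 12: 37108540 to 37179534, plus strand) fell furthest of the 9, from 20.4, 16.3, 16.8 and 15.2 CPM in the DMSO samples to 0.187, 0.0669, 0.144 and 0.0657 CPM in the CHIR99021 samples. The latter rest on 3, 1, 2 and 1 counts. In all, 1183 counts with DMSO stood against 7 with CHIR99021, a ratio 149-fold lower, with a 95% exact interval from 71.9 to 370 that covers counting error only. The log2 fold change was -7.11 (SE 0.24, edgeR adjusted p = 2.67e-10), the 12th lowest of all genes tested. This SE was worked back from the edgeR test statistic. The SE of *Meox2* was wider in DESeq2 (0.57) and in limma-voom (0.44). The size and the place among the 9 depend on how low values are treated: in limma on log2(FPKM + 0.1) *Meox2* stood at -5.42 beside *Six2* at -5.39, and on log2(FPKM + 1) at -2.93, behind *Six2* (-4.94), *Eya1* (-3.09) and *Meox1* (-2.95).

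*Meox1* (ENSMUSG00000001493, chromosome 11: 101877510 to 101894374, minus strand) stood at 23.9, 24.6, 26.4 and 19.8 CPM with DMSO and at 0.312, 1.34, 1.44 and 0.986 CPM with CHIR99021. No sample of the treated group came near the controls, and CHIR99021 replicate 1 was the lowest, with 5 counts. The means were 23.7 ± 2.80 and 1.02 ± 0.509 CPM (SD, n = 4), or 23.4-fold lower (log2 fold change -4.55, SE 0.26, edgeR adjusted p = 2.27e-07). An antisense gene within *Meox1*, *Gm11551*, had 36 counts with DMSO and 1 with CHIR99021 and was not tested. *Gm37444* within *Eya1*, *CT010456.3* across *Meox2* and *1700022H16Rik* at the start of *Osr1* were also too low to test.

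*Uncx* (ENSMUSG00000029546, chromosome 5: 139543494 to 139548179, plus strand) was the steadiest factor in the controls, at 110, 109, 107 and 101 CPM. With CHIR99021 it stood at 16.7, 8.30, 16.7 and 14.9 CPM. The groups were apart and replicate 2 was the lowest treated sample. The means were 107 ± 3.91 and 14.1 ± 3.97 CPM (SD, n = 4), 7.55-fold lower, with a log2 fold change of -2.92 (SE 0.18, edgeR adjusted p = 2.25e-06).

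*Cited1* (ENSMUSG00000051159, chromosome X: 102247381 to 102252181, minus strand), a transcriptional coregulator without DNA binding of its own, marks the progenitors that have not yet been induced. It was measured at 82.6, 59.3, 84.0 and 63.8 CPM in the DMSO samples and at 8.67, 12.7, 10.8 and 11.3 CPM in the CHIR99021 samples. The groups did not overlap, and replicate 2 was the lowest with DMSO and the highest with CHIR99021. The means were 72.4 ± 12.7 and 10.8 ± 1.65 CPM (SD, n = 4), 6.68-fold lower (log2 fold change -2.74, SE 0.15, edgeR adjusted p = 2.86e-07).

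**Figure D2:**
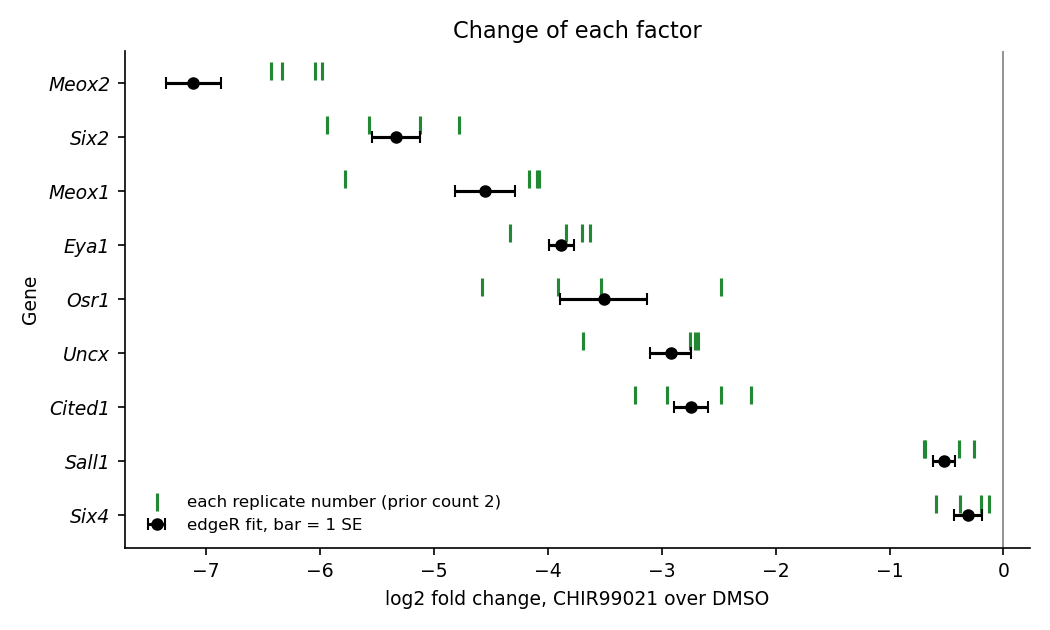
log2 fold change of each factor, CHIR99021 over DMSO, with the edgeR estimate as a point and 1 standard error as a bar, and 4 ticks for the change between samples of the same replicate number (log2 CPM, prior count 2). All ticks lie below 0. Those of *Meox2* lie above its fitted value because the prior count draws very low counts together. The bars are worked back from the edgeR test statistic, and the SE of *Meox2* was wider in DESeq2 (0.57) and limma-voom (0.44).

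Between samples of the same replicate number, all 9 factors were lower with CHIR99021 in 4 of 4 pairs. For the 8 factors whose groups were apart this holds under any pairing, so only *Six4* could have come out otherwise. The share of all tested genes lower in 4 of 4 pairs was not computed. For scale, every CHIR99021 sample lay below every DMSO sample in 23.4% of tested genes, which is a stricter condition. The changes of the factors within pairs (log2 CPM, prior count 2) ran from -5.94 to -4.78 for *Six2*, from -4.58 to -2.48 for *Osr1* and from -0.59 to -0.13 for *Six4*. The factors had a coefficient of variation of 3.66 to 19% among DMSO samples and of 9.73 to 64.7% among CHIR99021 samples, where most were also counted less deeply. CHIR99021 replicate 2 was the lowest treated sample for *Six2*, *Six4*, *Sall1* and *Uncx* and the highest for *Eya1*, *Cited1* and *Osr1*.

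The 9 factors together made up 945 to 1150 CPM in the DMSO samples and 294 to 361 CPM in the CHIR99021 samples. In CPM, what remained was mostly *Sall1*, whose share of the sum went from 34.1 to 40.1% with DMSO to 79.3 to 83.0% with CHIR99021. The share of *Six2* went from 18.2 to 21.1% to 0.934 to 1.84%. CPM is not divided by gene length, so these shares give long genes more weight (exon length 5265 bases for *Sall1*, 2119 for *Six2*). They do not rank the levels of the factors, which are compared per length below.

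Levels of different genes were compared as FPKM, the fragment counts per kilobase and library total that the authors deposited. In the DMSO samples *Six2* was first at 100 ± 14.1 FPKM (SD, n = 4), followed by *Sall1* at 77.4 ± 9.74, and the ranges of these 2 overlapped. *Cited1* at 43.2 ± 7.74 and *Uncx* at 35.6 ± 1.25 FPKM came next and overlapped with each other. *Eya1* followed at 20.3 ± 1.44, apart from its neighbours. *Osr1* at 14.3 ± 2.76 and *Meox1* at 11.1 ± 1.34 overlapped, and *Meox2* at 7.62 ± 0.991 and *Six4* at 2.62 ± 0.225 FPKM were each apart from the gene above.

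In the CHIR99021 samples the order was different. *Sall1* stood alone at 49.4 ± 5.01 FPKM (SD, n = 4), and the next, *Cited1*, was at 5.89 ± 0.893. *Uncx* at 4.30 ± 1.22 overlapped both *Cited1* and *Six2*, which had come down to the fourth place at 2.28 ± 0.775 FPKM. *Six4*, lowest of all in the controls, overlapped *Six2* at 1.92 ± 0.362. *Eya1* at 1.26 ± 0.234, *Osr1* at 1.14 ± 0.732 and *Meox1* at 0.435 ± 0.217 FPKM each overlapped the gene next to it, and *Meox2* was last at 0.0467 ± 0.0241. FPKM here is the same count divided by length and total, and so is not a separate measurement.

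**Figure D3:**
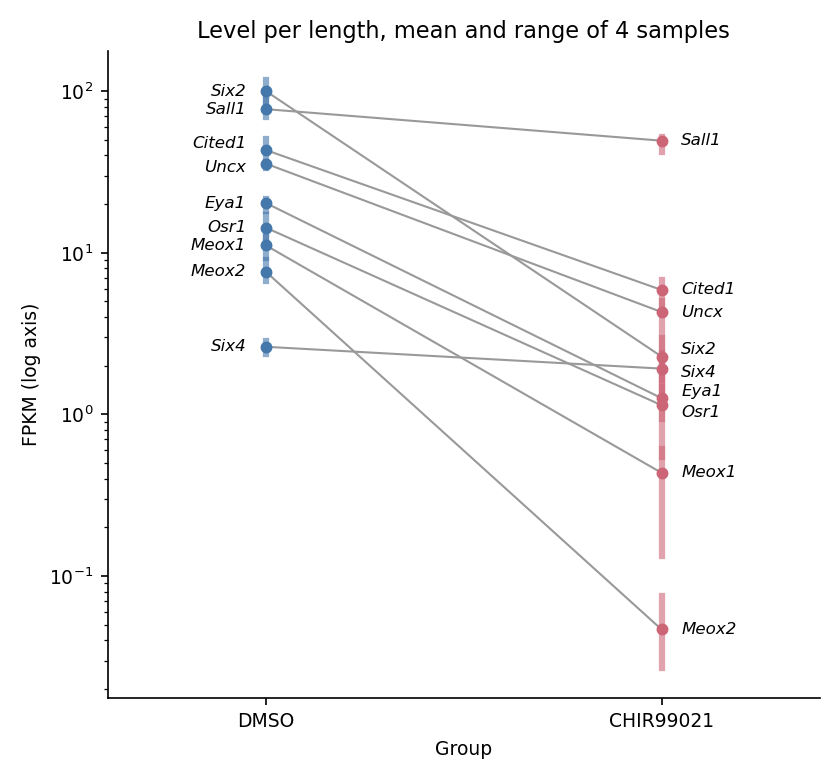
Level of each factor per kilobase (FPKM, log axis) in DMSO and CHIR99021 samples, with the mean of 4 samples as a point and their range as a bar. The line of *Six2* crosses those of *Sall1*, *Cited1* and *Uncx*, falling from 100 to 2.28 FPKM, while those of *Sall1* and *Six4* are nearly flat.

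To compare the falls of the factors with each other, the log2 ratio of each pair of factors (log2 CPM, prior count 2) was taken within each sample, where the scaling of the library has little part, and compared between groups by a two-sided exact permutation test. Of 36 pairs, 27 differed between the groups, each at an exact permutation p of 0.0286, the smallest that 4 samples against 4 can give, and an adjusted p of 0.0381. The groups did not overlap in any of these 27 pairs. *Six2* fell more than *Eya1* by 1.48 (SE 0.36), than *Cited1* by 2.63 (SE 0.34) and than *Uncx* by 2.39 (SE 0.15) on the log2 scale, all among the 27 pairs. *Meox2* fell more than *Six2* by 0.84 (SE 0.29), also among them, but the size of this gap is set by the prior count, which raises the 1 to 3 counts of *Meox2*: it was 1.57 with a prior count of 0.5, and the fitted changes were -7.11 and -5.33. *Sall1* and *Six4* fell less than each of the 7 other factors. The difference between *Sall1* and *Six4* themselves was 0.19 (SE 0.14, exact permutation p = 0.171, adjusted p = 0.193).

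The ratio of *Six2* to *Meox1* changed by -0.82 (SE 0.54, exact permutation p = 0.2, adjusted p = 0.218), so that these 2 could not be ranked. The ratio of *Meox1* to *Meox2* changed by 1.67 (SE 0.56, exact permutation p = 0.0857, adjusted p = 0.103). Among *Eya1*, *Cited1*, *Osr1* and *Uncx*, only the ratio of *Eya1* to *Cited1* differed between the groups, by -1.15 (SE 0.11, exact permutation p = 0.0286, adjusted p = 0.0381), and the 5 other pairs had exact permutation p-values from 0.0571 to 0.714. *Osr1* and *Meox1* likewise did not differ past the threshold (0.90, SE 0.32, exact permutation p = 0.0571, adjusted p = 0.0709). These tests do not use the pairing of the samples. Between samples of the same replicate number, each of the 27 ratios past the threshold changed in 1 direction in 4 of 4 pairs. Because their groups were apart, this holds under any pairing and is not further evidence. Of the 9 other ratios, 4 also changed in 1 direction in 4 of 4 pairs (*Six4* to *Sall1*, *Cited1* to *Osr1*, *Osr1* to *Meox1* and *Meox1* to *Meox2*). An exact paired test of 4 pairs cannot go below p = 0.125.

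**Figure D4:**
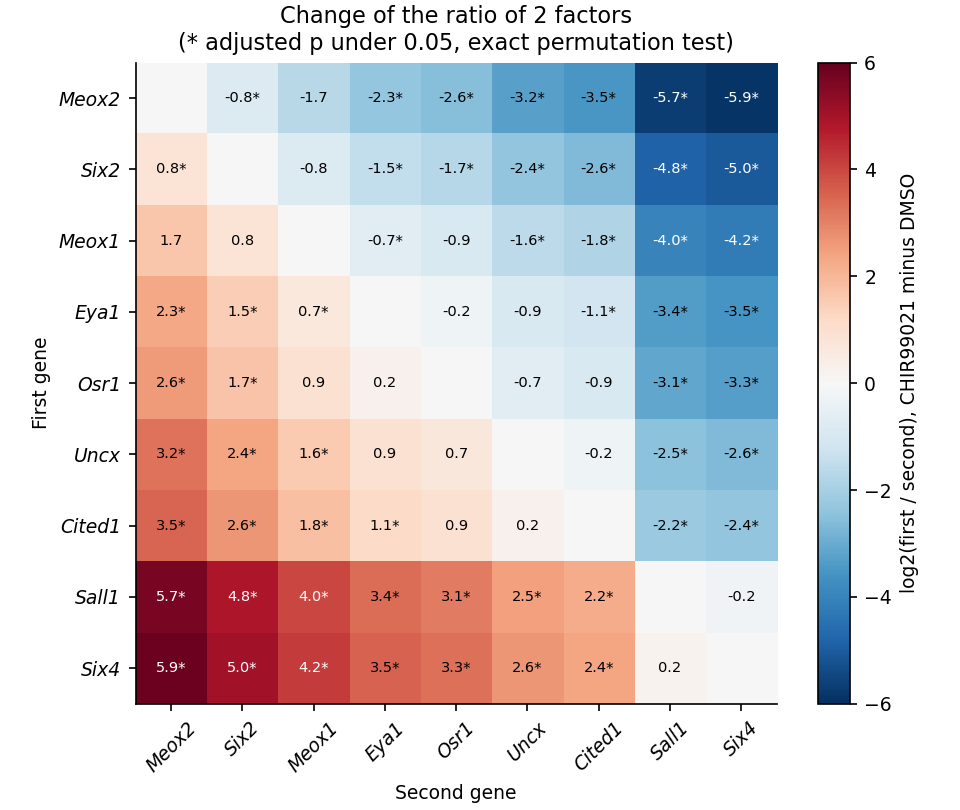
Change with CHIR99021 in the log2 ratio of each pair of factors, row over column, as a color and a number, with a star for the 27 pairs past an adjusted p of 0.05 (each pair is shown in both orders). The rows and columns of *Sall1* and *Six4* are starred throughout except where they meet, at 0.19.

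The genes whose pattern over the 8 samples was most like that of *Six2* were found by the root mean square difference of log2 CPM after centring, a description that both the treatment and the scaling enter. They were *Fam107a* (0.15), *Traf1* (0.28), *Crym* (0.34), *Tsga13* (0.41) and *Siglecg* (0.51). *Fam107a*, a gene for an actin-associated protein, went from 32.9 ± 4.62 to 0.718 ± 0.266 CPM (SD, n = 4), and *Crym*, which codes for a thyroid hormone binding protein, from 48.3 ± 4.19 to 1.31 ± 0.191 CPM. *Traf1*, an adaptor of tumor necrosis factor receptors, went from 58.2 ± 10.6 to 1.36 ± 0.226 CPM. Among the 8 other factors *Meox2* was nearest to *Six2*, as the 8th of all tested genes (0.55), followed by *Meox1* as the 25th (0.78) and *Eya1* as the 36th (0.86). *Sall1* and *Six4* ranked 2658th and 3737th. With a prior count of 0.5 in place of 2, 3 of the 5 nearest genes were the same. The places of the 8 other factors were not compared at that prior count. The change in the ratio of *Six2* to *Meox2* was 0.84 with a prior count of 2 and 1.57 with 0.5. For *Six2* to *Meox1* it was -0.82 and -0.69, so the order of these 2 may depend on the prior count.

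The families to which the factors belong were followed through a list of 15 paralogues and DACH cofactors, of which 12 could be tested. Of these, 9 were lower and 1 was higher, with a median log2 fold change of -0.79. *Sall3* fell from 6.76 ± 1.98 to 0.603 ± 0.362 CPM (log2 fold change -3.48) and *Osr2* from 26.4 ± 12 to 3.95 ± 1.18 CPM (log2 fold change -2.74) (SD, n = 4). *Cited4* (log2 fold change -2.88) and *Eya4* (-2.01) were also among the lower genes, as were *Six5* (-0.91), *Eya2* (-0.67), *Cited2* (-0.55) and *Sall2* (-0.49).

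*Eya3* had a log2 fold change of 0.08 (SE 0.051) and was not called, nor was *Dach1* at 0.07 (SE 0.086), and both signs turned under scaling by library size alone. *Dach2*, a cofactor of this group, was the gene that rose, from 5.96 ± 1.06 to 35.7 ± 6.10 CPM (SD, n = 4, log2 fold change 2.58, SE 0.15, edgeR adjusted p = 1e-07). *Six3*, *Six6* and *Sall4* were too low to test.

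Other genes of the cap mesenchyme were lower in 15 of 21 tested cases and higher in 0, with a median log2 fold change of -0.82. Several of them, *Traf1* and *Crym* included, were named by the study from these same samples, so that the list is not independent evidence of its direction. *Gdnf*, the ligand by which the mesenchyme draws in the ureteric bud, fell from 39.5 ± 7.81 to 9.45 ± 1.78 CPM (SD, n = 4, log2 fold change -2.07). *Wt1*, a zinc finger regulator of the progenitors and later of podocytes, fell less (log2 fold change -1.41), and *Pax2*, a paired box factor that the ureteric bud expresses too, less again (-0.73). *Itga8*, the integrin subunit of the mesenchyme, fell by 0.53 and *Bmp7*, a growth factor of the progenitors, by 0.28 on the log2 scale. The largest fall was that of *Traf1* (-5.41), so that *Six2*, *Meox2* and *Traf1* were the lowest of both lists together.

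The replicate block made calls of 2 genes of this list, named here after their values were seen: *Hoxd11* was then higher (log2 fold change 0.34, edgeR adjusted p = 0.0379) and *Fgf20* lower (-1.16, edgeR adjusted p = 0.0184).

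Genes of the induced mesenchyme and early nephron went both ways. Of 18 tested, 10 were lower and 7 higher, with a median log2 fold change of -0.57. The number higher was 4 without DMSO replicate 2 or 3 and 5 or 6 without any other sample. *Wnt4*, the Wnt ligand of induced cells, rose from 59.4 ± 17.2 to 304 ± 51.0 CPM (SD, n = 4, log2 fold change 2.35, SE 0.24, edgeR adjusted p = 0.000193), and *Lef1* rose most (2.90). *Lhx1*, a homeobox factor of the renal vesicle, fell from 79.2 ± 16.3 to 25.1 ± 6.19 CPM (SD, n = 4, log2 fold change -1.66), and the Notch ligand *Dll1* fell most (-3.17). *Ccnd1* (-1.58), *Jag1* (-0.63), *Fgf8* (-0.53) and *Pax8* (-0.46) were also called lower.

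**Figure D5:**
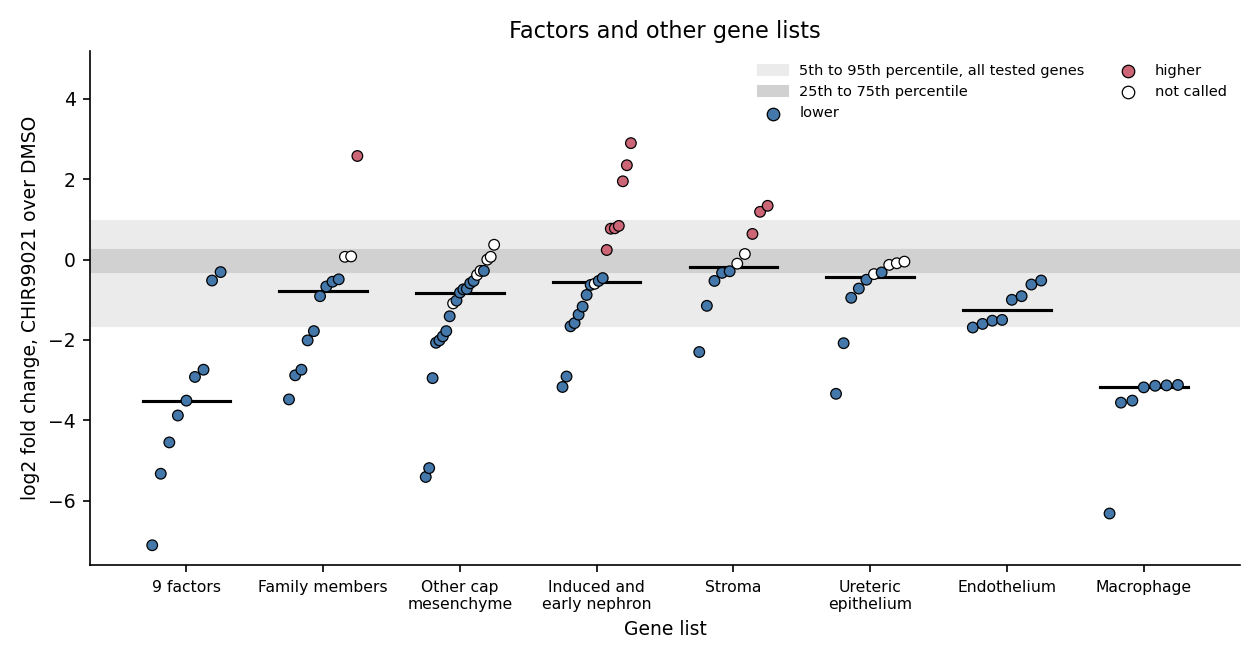
log2 fold change of each tested gene in 8 lists, with a bar at each list's median and shading for the 25th to 75th and the 5th to 95th percentile of all tested genes (-0.31 to 0.24 and -1.66 to 0.97). Of the 9 factors, 7 lie below the shaded bands and *Sall1* and *Six4* within them.

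Whole kidneys hold other cell types, and their markers moved with the treatment too. Endothelial markers were lower in 8 of 8 tested (443 to 614 summed CPM with DMSO, 174 to 242 with CHIR99021), macrophage markers in 7 of 7 (55.7 to 218 and 5.78 to 28.2) and ureteric epithelial markers in 6 of 10 (859 to 1010 and 517 to 608). The endothelial count was 7 with limma-voom, 7 or 8 without single samples and 5 in replicates 1 and 3 alone. Stromal markers were lower in 5 and higher in 3 of 10, and their summed level, mostly collagen, rose from 3990 to 5120 CPM to 7330 to 8880 CPM. All 10 Wnt target genes tested were higher (233 to 264 and 2840 to 3260 summed CPM), which is not independent evidence, since responsive kidneys were selected. Signs of library make-up moved as well, with groups apart in each. Mitochondrial genes took 2.47 to 3.20% of counts with DMSO and 3.48 to 4.14% with CHIR99021, the 10 most abundant genes 4.63 to 5.39% and 6.36 to 6.94%, and 24243 to 24912 and 23646 to 23938 genes were detected. The part of these cell types and of library make-up in the falls of the 9 factors was not tested.

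Since *Meox1*, *Meox2* and *Uncx* are also genes of the somites, markers of muscle and its precursors were checked. Of 10 listed, 8 were in the table and 3 could be tested, and 2 of these were lower. The summed level was 7.33 to 20.6 CPM with DMSO and 0.936 to 4.89 CPM with CHIR99021, and the precursor markers *Pax3* (0.0143 ± 0.0285 CPM with DMSO, SD, n = 4) and *Pax7* (0.0710 ± 0.0865) were near 0. *Myog*, a factor of differentiating muscle, went from 2.96 ± 1.38 to 0.183 ± 0.281 CPM (SD, n = 4). The part of such cells in the levels and falls of *Meox1*, *Meox2* and *Uncx* was not tested. Of adrenal and gonadal markers 1 of 5 tested was lower and 1 higher.

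Liver transcripts set DMSO replicates 2 and 4 apart. The summed level of the 8 liver markers was 1330 and 941 CPM there, against 7.62 and 58.3 CPM in the other 2 control samples and 1.25 to 7.49 CPM with CHIR99021. In replicates 1 and 3 of both groups alone, 8 factors were still called lower: *Meox2* stood at a log2 fold change of -6.74, *Six2* at -5.38, *Meox1* at -4.89, *Eya1* at -4.09, *Osr1* at -4.05, *Cited1* at -3.10, *Uncx* at -2.71 and *Sall1* at -0.50. *Six4* stood at -0.39 with an edgeR adjusted p of 0.056.

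The nearest tested gene on each side of each factor was also followed. Of these 18 genes, 11 were lower, beside 25.0% of all tested genes, 1 was higher and 6 were not called. *Camkmt* beside *Six2*, *Mnat1* beside *Six4*, *Rpl5-ps1* beside *Eya1*, *Ispd* beside *Meox2* and both neighbours of *Osr1* (*Gm7099* and *AC135641.1*) were not called, and *Rps4x*, a ribosomal protein gene beside *Cited1*, was higher (log2 fold change 0.57). Among those that fell, the log2 fold change stayed above -1.1 for *Lactb2* beside *Eya1* (-0.43), *Cyld* (-0.53) and *Tox3* (-0.46) beside *Sall1*, *Etv4* beside *Meox1* (-0.73), *Etv1* beside *Meox2* (-0.66) and *Micall2* beside *Uncx* (-1.06). *Sost* beside *Meox1* (-2.31) and *Gm14858*, 0.341 kb from *Cited1* (-1.76), fell further from levels of 1.60 and 1.70 CPM.

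Noncoding neighbours of *Six2* and *Uncx* fell strongly. *Gm29418*, a lincRNA 108 kb from *Six2*, went from 8.24 ± 1.12 to 0.0678 ± 0.0547 CPM (SD, n = 4, log2 fold change -6.79, SE 0.34, edgeR adjusted p = 9.77e-09). *4930500L23Rik*, a lincRNA 2.15 kb from *Uncx*, went from 1.83 ± 0.313 to 0.293 ± 0.346 CPM (SD, n = 4, log2 fold change -2.65, SE 0.55, edgeR adjusted p = 0.00187).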

How the data were processed

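RNA of 8 cultured E12.5 kidney samples, 4 with DMSO and 4 with CHIR99021, was sequenced, and samples were grouped by the agent in their labels. The authors aligned reads to GRCm38 with HISAT2 2.0.5, made the deposited counts per gene with featureCounts, and divided them by gene length and library total to give the deposited FPKM values. The authors' own comparison columns (mean signal, fold, log2 fold, p-value and adjusted p-value) were not used, and all columns of sample values were mapped to a sample. Counts summed to 14599082 to 17751992 per sample. Samples of a group differed by more than sampling noise (chi-square over degrees of freedom 5.05 to 12). The labels do not tie samples to litters, so p-values measure the spread between these samples.

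Counts were analysed in R 4.3.3 with edgeR 4.0.16: filterByExpr (minimum count 10, minimum total 15) kept 16723 genes, libraries were scaled by TMM (factors 1.04 to 1.06 with DMSO, 0.948 to 0.963 with CHIR99021), and groups were compared by glmQLFit with robust dispersions and glmQLFTest, group as the only term, with Benjamini-Hochberg adjustment over all tested genes and a threshold of 0.05. Rose, fell, lower and higher are used of genes past it. CPM values use the TMM-scaled library sizes. SEs of edgeR fold changes are the size of the log2 fold change divided by the square root of the glmQLFTest F statistic. They are not fitted standard errors, and for *Meox2*, with counts near 0, other fits gave wider ones. Ratios of factors were compared by two-sided exact permutation tests, adjusted over 36 pairs. The procedure was tested on simulated data. In the simulated counts far fewer genes changed, and by less than the largest falls here. This does not test the scaling where so many genes change, or falls to a few counts. Alternatives used limma 3.58.1 and DESeq2 1.42.0.

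The study pairs left and right kidneys of an embryo. After removal of group means, samples of the same replicate number correlated at 0.111 to 0.346 across genes and others at -0.180 to 0.0766, so that numbers were taken as pairs. Coordinates and gene annotation are those of GENCODE M21, and promoters those of RefSeq, where 6 of the 9 factors had an entry.

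The 9 factors and the gene lists were chosen with earlier results of these data known. Named genes are the factors, their tested paralogues, the first 6 genes of each other list in its written order with its largest rise and fall, the 5 genes most like *Six2*, and neighbouring and overlapping genes. A gene that this rule gives is not reported here by name and stays in the tests and counts.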

Additional observations from a re-analysis of the deposited data

Results flagged for a closer look

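In the 18 groups of 4 samples, made up of 9 factors in 2 treatments, 1 sample lay apart from the other 3 by Dixon's test. *Sall1* stood at 233 CPM in CHIR99021 replicate 2, against 284 to 289 CPM in the other CHIR99021 samples, a gap of 0.914 of the group's range. Chance alone marks about 1 in 20 such groups.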

How the results depend on the processing

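Over 13 alternatives and 8 fits that each left out 1 sample, no result reversed, and 668 of 707 values kept their call or stayed within 1.5 times. All factors but *Six4* kept their call in all 21, and 8 or 9 were called lower throughout. *Six4* was not called in limma on log2(FPKM + 0.1) (log2 fold change -0.15, adjusted p = 0.389), on log2(FPKM + 1) (-0.10, 0.387) and on log2(count + 1) (-0.29, 0.106), nor in replicates 1 and 3 alone (-0.39, 0.056). Leaving out single samples gave it -0.43 to -0.25. The cause was not tested. The replicate block changed no call of a factor (*Six2* -5.33, *Six4* -0.33). In the lists it ended the call of *Cdh4* (adjusted p = 0.139) and made calls of *Cdh6*, *Krt8*, *Acta1*, *Hoxd11* and *Fgf20*, genes named after their values were seen.
Scaling by library size alone moved the median of all genes to -0.14 and the lower share of calls from 51.4 to 71% (upper-quartile scaling 58.5%), with no factor turning direction.
Other cap mesenchyme genes called higher numbered 1 with DESeq2 and with the block (0 to 1 without single samples). Induced genes called higher numbered 4 with library size only, with no expression filter and in replicates 1 and 3 alone (4 to 6 without single samples). In replicates 1 and 3 alone, 4 induced and 5 endothelial genes, 4 muscle genes (2 to 4 without single samples) and 1 liver gene were lower. Liver genes lower numbered 1 with limma-voom and 1 to 7 without single samples. Of adrenal and gonadal genes, 0 were lower and 0 higher with a filter of 1 CPM in 4 samples, 2 lower with no filter, and 2 higher in each limma fit on log2 values. Pairs of factors past the threshold numbered 29 with a prior count of 0.5 and 26 with log2(FPKM + 0.1), 27 and 26 of them in common with the 27. With a prior count of 0.5, 3 of the 5 genes most like *Six2* were the same. The paired look at the ratios was added after the data were seen. Leaving out a sample, no ratio test can pass 0.05, and 27 to 30 pairs had groups apart.
Low counts limit *Meox2* and *Meox1* with CHIR99021.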
